A study of Sus scrofa with 8 samples.

Results

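Transforming growth factor beta (TGF-beta) and bone morphogenetic protein (BMP) signalling was examined in pig backfat through 10 genes: the receptors TGFBR1, TGFBR2 and TGFBR3, the ligands TGFB1, TGFB2, TGFB3, BMP2 and BMP4, and the signal carriers SMAD3 and SMAD4. The genes were taken by name, and they were selected on sight of the log2 signals of KNP against YS arrays and of the array's background level, so the differences between breeds given for them are descriptions with no test. Probe sets, the groups of short probes that report 1 transcript on the array, were used where the array's annotation gave exactly 1 gene symbol. These were 15 probe sets for 8 of the 10 genes, out of 23999 probe sets and 6765 named genes in all. TGFBR2 and BMP2 were not analysed here.

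The study set backfat, the subcutaneous fat along the back, of KNP pigs at 7 months of age (4 arrays) against that of YS pigs at 6 months (4 arrays), raised under identical conditions, with no treatment named. One label spells YS as Yorkshire, KNP is spelled out in none, and sex is not given. Breed and age cannot be told apart. Nothing says that the 4 arrays of a breed came from 4 animals, so each SD is the spread between arrays, which may be technical.

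In this pathway a secreted dimeric ligand brings together type II and type I receptors, which are serine/threonine kinases. TGFBR1, a type I receptor, then phosphorylates SMAD3, which joins the shared partner SMAD4 and enters the nucleus. In fat tissue TGF-beta is known as a brake on adipocyte formation and a driver of matrix production, while BMP4 is known for committing precursor cells to the adipocyte lineage.

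Signals are in the array's linear units, with each array scaled to a trimmed mean of 500 by the authors. Log2 values are log2(signal + 16), which understates the change of dim probe sets. A guide to background was the no-target level, the 95th percentile of 23 control probe sets without a target in pig RNA, which ranged from 40.6 to 161 between arrays. In all, 3 arrays stood apart. The 3'/5' log2 signal difference of the housekeeping controls, a sign of shortened RNA or labelled product, was 9.13 in KNP replicate 1, 5.92 in KNP replicate 2 and 4.43 in YS replicate 4, and lay between 2.12 and 3.18 elsewhere. The summed signal of 10 skeletal muscle markers was 78205 in KNP replicate 2 and between 347 and 1052 on the other 7 arrays. All 7 measured adipocyte markers were above the no-target level on every array, with a summed signal of 84643 to 114059 in KNP and 76772 to 101501 in YS.

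TGFBR1 was the gene for which the breeds were furthest apart, and it was so on only 1 of its 3 probe sets. On Ssc.23794.1.S1_at the signal was 130, 191, 132 and 160 in KNP replicates 1 to 4 and 45.5, 61.9, 12.5 and 26.0 in YS replicates 1 to 4. All KNP arrays lay above all YS arrays. On the log2 scale the KNP arrays averaged 7.39 ± 0.24 and the YS arrays 5.61 ± 0.64 (SD, n = 4), a difference of 1.78 ± 0.34 (SE). No fold change is given, since 3 of the 4 YS arrays were below background.

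This separation was measured close to background. The KNP signal of Ssc.23794.1.S1_at lay above the no-target level on 4 arrays, by 1.45 to 1.74 times, and the YS signal did so on 1 array, replicate 2, by 1.53 times. Set against each array's own no-target level, a scale chosen after the values were seen, the breeds therefore overlapped, since YS replicate 2 exceeded KNP replicate 1. YS replicate 2 had the lowest no-target level of all arrays, 40.6. Its signal itself was 61.9, against 130 in KNP replicate 1, so the overlap rests on that level. The log2 difference between breed means on that scale was 2.04. It was taken with no constant added and so is not comparable with the 1.78 above. For the signal itself, the difference depended on the constant added before the logarithm, at 1.13 with 64 and 2.25 with 1. It ran from 1.52 without YS replicate 3 to 2.0 without YS replicate 2.

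The brightest TGFBR1 probe set, Ssc.2874.1.S1_at, showed no such pattern. Its signal was 1267, 726, 2053 and 1603 in KNP and 1009, 1581, 1220 and 1180 in YS, above the no-target level on all 8 arrays. The highest and the lowest array were both KNP, and the breeds overlapped. The mean log2 signal was 10.38 ± 0.63 against 10.28 ± 0.27 (SD, n = 4), a difference of 0.10 ± 0.34 (SE). The difference was 0.38 without KNP replicate 2, the muscle-marker array and the lowest here, and -0.11 without KNP replicate 3.

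The third, Ssc.23794.1.A1_at, for which the annotation names the same source sequence as for the separated probe set, was at 15.2 to 40.2 in KNP and 21.3 to 55.5 in YS. It lay above the no-target level on 0 of 8 arrays and so carried no usable level. TGFBR1 transcripts were thus clearly detected by 1 probe set with overlapping breeds and marginally by another with KNP above. The names of the third and the separated probe set differ only in A1 against S1. Whether both read the TGFBR1 transcript was not tested, so the third is not counted for or against detection. Between the bright and the separated probe set Pearson's r was 0.06 over the 8 arrays (Spearman's rho 0.19, exact permutation p = 0.896 for r and 0.665 for rho, adjusted 0.903 and 0.935 over 11 pairs). Without the 2 arrays furthest from the median of the bright probe set r was 0.53. The separated probe set was above background on 5 of the 8 arrays, so how the pair relates was not resolved.

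**Figure D1:**
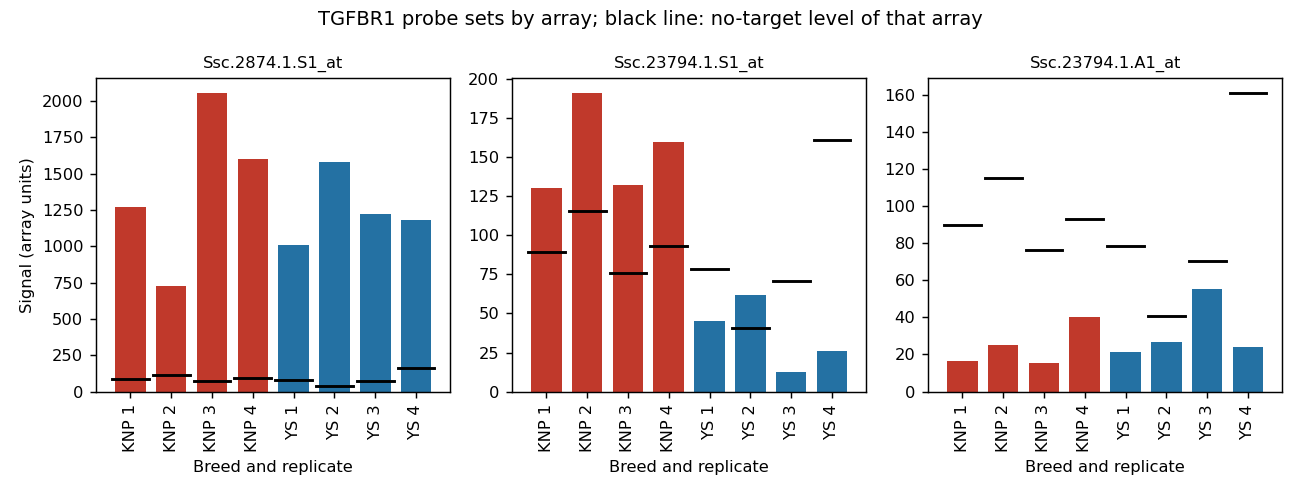
Bars give the signal of each TGFBR1 probe set in linear array units on the 4 KNP (red) and 4 YS (blue) arrays, and black lines the no-target level of each array; the 3 panels have different axes. On Ssc.2874.1.S1_at all bars stand far above the lines. On Ssc.23794.1.S1_at the 4 KNP bars and 1 YS bar end a little above them, at 1.45 to 1.74 and 1.53 times the level, and on Ssc.23794.1.A1_at no bar reaches its line.

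TGFBR3 encodes betaglycan, a co-receptor that presents ligands, TGF-beta 2 above all, to the signalling receptors. Its single probe set gave 142, 6.48, 107 and 166 in KNP and 60.5, 57.5, 13.9 and 34.4 in YS. Of the KNP arrays, 3 lay above all YS arrays, and KNP replicate 2 lay below them all. The means were 6.56 ± 1.40 and 5.75 ± 0.63 (SD, n = 4), with a difference of 0.81 ± 0.65 (SE) that was 1.5 without KNP replicate 2 and 0.49 without KNP replicate 4. On 3 KNP arrays and 1 YS array TGFBR3 exceeded the no-target level, so most of its YS values are at background.

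The ligand TGFB1, the main TGF-beta isoform of immune and stromal cells, had 2 probe sets, for which the annotation names the same sequence record. Ssc.76.3.S1_a_at gave 259, 192, 237 and 220 in KNP and 340, 71.2, 285 and 163 in YS. The 4 KNP arrays lay close together, inside the range of the YS arrays, and the difference was 0.26 ± 0.43 (SE). It was -0.15 without YS replicate 2 and 0.53 without YS replicate 1.

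Ssc.76.1.S1_a_at gave 314, 145, 160 and 133 in KNP and 156, 152, 48.9 and 285 in YS, with a difference of 0.32 ± 0.47 (SE). Here KNP replicate 1 and YS replicate 4 were the highest of their breeds, and both are among the arrays with a large 3'/5' difference. KNP replicate 2 went the other way. Its 3'/5' difference of 5.92 exceeded the 4.43 of YS replicate 4, but its signal of 145 was below YS replicates 1 and 2. Those 2 arrays had 3'/5' differences of 2.58 and 3.18. The part of RNA quality in these values was not tested. The breed difference was 0.08 once each array's 3'/5' value was added to the fit. It was 0.06 without KNP replicate 1, -0.09 without YS replicate 3 and 0.64 without YS replicate 4. Between the TGFB1 probe sets r was -0.17 and rho -0.05 over 8 arrays (exact permutation p = 0.642 and 0.935, adjusted 0.903 and 0.935), and r was -0.51 without the 2 arrays furthest from the median.

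TGFB2, a ligand that depends most on betaglycan, had 4 probe sets. The brightest, Ssc.12131.1.A1_at, gave 642, 570, 207 and 362 in KNP and 340, 291, 297 and 623 in YS, above the no-target level throughout. Its 3 highest values were on KNP replicate 1, YS replicate 4 and KNP replicate 2, the same 3 arrays that had the largest 3'/5' differences. The breed difference was 0.14 ± 0.41 (SE) and turned to -0.16 with the 3'/5' covariate, to -0.07 without KNP replicate 1 and to -0.01 without KNP replicate 2. Against each array's no-target level it was -0.11, a scale on which the bright TGFBR1, TGFB3 and SMAD4 probe sets also fell below 0. The TGFB2 difference was 0.45 without KNP replicate 3. How far RNA quality or muscle set these values was not tested beyond this.

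Ssc.92.1.S1_at was also detected on all 8 arrays, at 110, 215, 169 and 127 in KNP and 109, 194, 191 and 171 in YS, with a difference of -0.10 ± 0.29 (SE). The other TGFB2 probe sets were dim. The name of Ssc.92.1.A1_at differs from that of Ssc.92.1.S1_at only in A1 against S1, and whether both read the TGFB2 transcript was not tested. Ssc.92.1.A1_at ran from 6.53 to 166 in KNP and from 70.9 to 154 in YS, above the no-target level on 4 of 8 arrays, and its difference of -0.64 ± 0.58 (SE) was -0.05 without KNP replicate 1, where it was lowest, and -1.06 without KNP replicate 4. Ssc.10287.1.A1_at ran from 5.83 to 196 in KNP, with KNP replicate 1 highest, and from 33.0 to 84.0 in YS, above the level on 3 arrays. Its difference of 0.19 ± 0.64 (SE) was -0.29 without KNP replicate 1 and 0.81 without KNP replicate 4.

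Between these 2 dim TGFB2 probe sets r was -0.81 and rho -0.71 (exact permutation p = 0.0215 and 0.0576, adjusted over the 11 pairs 0.236 and 0.634), and r was -0.47 without the 2 arrays furthest from the median. With most values of the pair at background and no adjusted p under 0.05, no relation is read from this.

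TGFB3, the third isoform, was detected on all 8 arrays by Ssc.27593.1.S1_at, at 320, 365, 347 and 272 in KNP and 184, 367, 414 and 305 in YS. The KNP arrays fell inside the YS range, and the difference was 0.08 ± 0.29 (SE), and ran from -0.14 without YS replicate 1 to 0.22 without YS replicate 3. The other probe set, Ssc.6138.1.S1_at, gave 170, 42.3, 14.5 and 9.32 in KNP and 83.7, 71.3, 67.5 and 91.7 in YS. The YS arrays lay close together, at an SD of 0.17, and the KNP arrays spread around them at an SD of 1.30. Its difference was -0.81 ± 0.57 (SE), and it ran from -1.40 without KNP replicate 1, the array that stood highest, to -0.53 without KNP replicate 3 and -0.44 without KNP replicate 4. This probe set exceeded the no-target level on 1 KNP array and 2 YS arrays.

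BMP4 was the only BMP ligand of the 10 genes with a probe set. Its signal was 113, 28.3, 191 and 213 in KNP and 176, 140, 184 and 226 in YS. Only KNP replicate 2 was below the no-target level, and the breeds overlapped. The KNP arrays averaged 7.00 ± 1.08 and the YS arrays 7.61 ± 0.26 on the log2 scale (SD, n = 4), a difference of -0.60 ± 0.50 (SE). Without KNP replicate 2 it was -0.09, so most of the difference rested on that array. It was -0.88 without KNP replicate 4 and -0.26 with array weights.

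KNP replicate 2 was the lowest of the 8 arrays for BMP4, for TGFBR3 and for the bright TGFBR1 probe set. It was also the array with the skeletal muscle signal, and had the second highest 3'/5' difference. In bulk tissue, fewer cells of a type and less RNA per cell cannot be told apart, and the part of muscle in these low values was not tested. For SMAD3, for the separated TGFBR1 probe set, and for Ssc.92.1.S1_at of TGFB2, the same array was the highest.

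SMAD3 and SMAD4 carry the signal to the nucleus. SMAD4 was among the steadiest of the probe sets described here, at 1274, 916, 1111 and 1198 in KNP and 909, 1125, 927 and 1240 in YS, all far above the no-target level. The means were 10.14 ± 0.20 and 10.05 ± 0.21 (SD, n = 4), with a difference of 0.10 ± 0.24 (SE) that ran from 0.03 to 0.19 with 1 array left out. SMAD3 was measured poorly, at 12.2, 152, 9.65 and 142 in KNP and 12.7, 131, 84.6 and 27.0 in YS. In each breed some arrays were high and others at background, with the no-target level exceeded on 2 arrays of each. The means were 6.05 ± 1.50 and 6.03 ± 1.08, and the difference of 0.02 changed sign with the array left out, from -0.43 without KNP replicate 2 to 0.47 without KNP replicate 3.

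**Figure D2:**
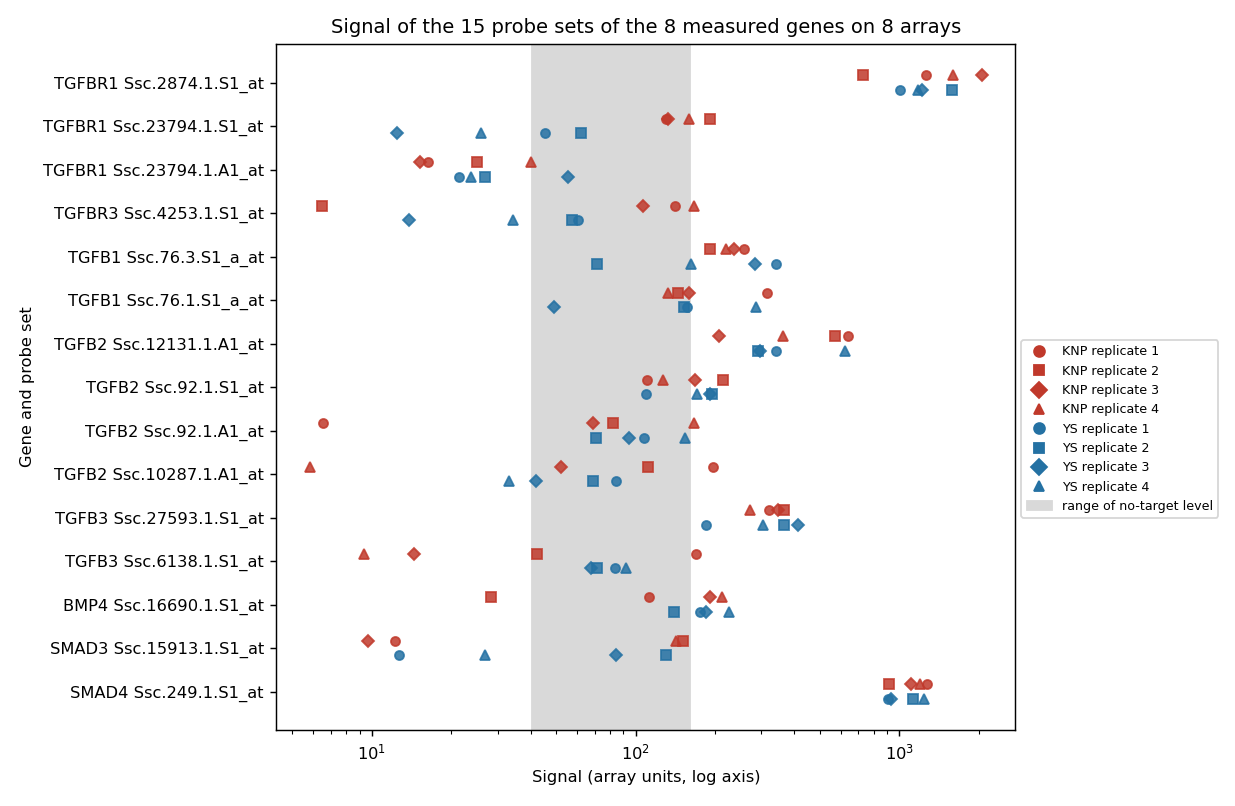
Each point is the signal of 1 probe set on 1 array (log axis), for the 15 probe sets of the 8 measured genes, with KNP in red above YS in blue and a shape per replicate; the grey band spans the no-target level of the 8 arrays. Only Ssc.23794.1.S1_at of TGFBR1 has all 4 KNP points to the right of all 4 YS points.

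Over the 15 probe sets, 6 exceeded the no-target level on all 8 arrays and 8 on at least 6. The filter on low signal removed the TGFBR1 probe set Ssc.23794.1.A1_at and the SMAD3 probe set, which left 13 probe sets of 7 genes tested. The separated TGFBR1 probe set and that of TGFBR3 passed it through their KNP values, and the dim TGFB3 probe set through its YS values: the mean of the other breed lay below that of the SMAD3 probe set. Of those 13, 9 had a higher and 4 a lower mean in KNP, with a median difference of 0.10, beside a median of -0.00101 and a 49.9% share of higher means over the 17999 tested.

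Only 1 of the 13, that of TGFBR1, had all KNP arrays above all YS arrays, and 0 had all below, against 198 (1.10%) and 154 (0.856%) of the probe sets tested. The contrast had been in view when the genes were chosen, so nothing is read from this count. The limma fit called 0 of the 17999 (0%) at an adjusted p of 0.05, hence 0 of the 13; 511 had an unadjusted p under 0.05, 268 of them higher in KNP. That number was 883 without YS replicate 4, with 627 higher, and 777 without KNP replicate 1, with 297 higher. These counts all lie below a share of 0.05 of the probe sets tested, which no difference would give on average, so no breed difference is read from them.

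**Figure D3:**
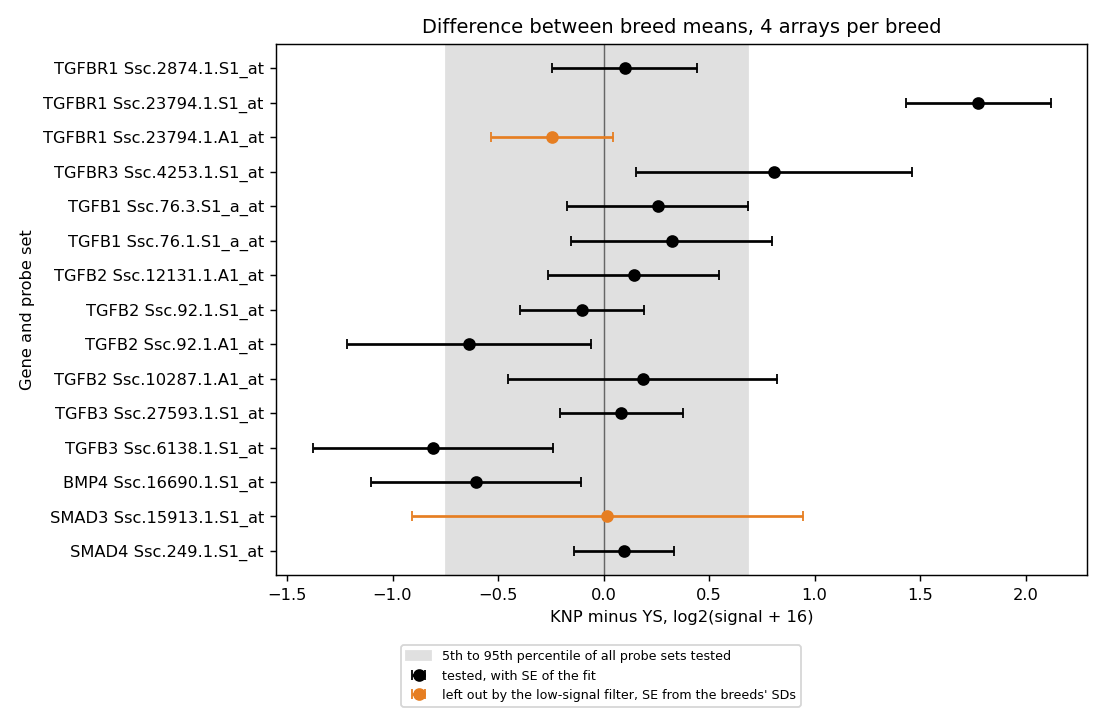
Points give the difference between breed means (KNP minus YS, log2 scale) of each probe set, with bars of 1 SE on each side. For Ssc.23794.1.A1_at and the SMAD3 probe set, left out by the low-signal filter, the SE comes from the SDs of the breeds. The grey band holds the 5th to the 95th percentile of all 17999 probe sets tested, -0.75 to 0.69. The TGFBR1 probe set Ssc.23794.1.S1_at lies at 1.78; the only others outside the band are TGFBR3 at 0.81 and the dim TGFB3 probe set at -0.81.

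The probe sets of TGFBR1, TGFB1, TGFB2 and TGFB3 could be compared with each other in 11 pairs. In 9 of these pairs a probe set was above the no-target level on only 0 to 5 arrays. Values at background need not follow the transcript, so nothing is read from those 9. The other 2 were the TGFB1 pair and the TGFB2 probe sets detected on all 8 arrays. For the latter r was -0.14 and rho -0.19 (exact permutation p = 0.722 and 0.665, adjusted 0.903 and 0.935), and r was 0.15 without the 2 arrays furthest from the median. With exact permutation tests, two-sided, 0 of the 11 pairs passed an adjusted p of 0.05 and 1, the dim TGFB2 pair, had an unadjusted p under 0.05.

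**Figure D4:**
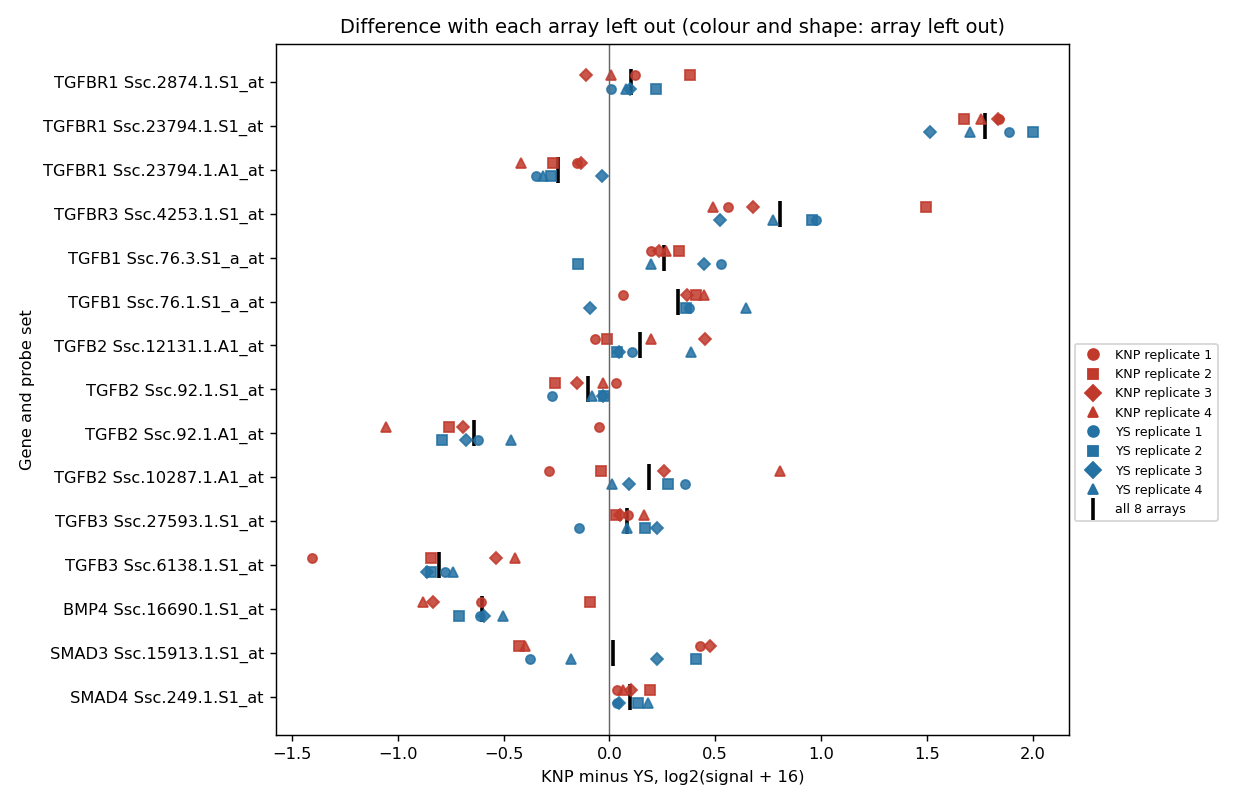
Black bars give the difference between breed means (KNP minus YS, log2 scale) over all 8 arrays, and each coloured point the difference with the array of that colour and shape left out. The points of TGFBR1 Ssc.23794.1.S1_at stay between 1.52 and 2.0, those of BMP4 and TGFBR3 move most without KNP replicate 2, and those of SMAD3 fall on both sides of 0.

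The other genes of the pathway were taken in 6 lists, holding 143 gene symbols, a few of which name the same gene. Of these, 64 had a probe set and 55 were tested. With each gene taken by its brightest probe set, 0 of the 55 passed the limma test in either direction, 0 had an unadjusted p under 0.05 with a higher mean in KNP and 2 with a lower mean. There were 29 genes with a higher and 26 with a lower mean in KNP, and the median difference was 0.0061, beside 0.01 for all 6006 named genes tested. The differences ran from -1.18 to 0.87, and the brightest TGFBR1 probe set, at 0.10, lay among them.

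Among 6 other ligands tested, 5 were higher and 1 lower in mean, with a median of 0.18. GDF11, a relative of myostatin, averaged 6.83 ± 0.53 on the KNP arrays and 6.07 ± 0.93 on the YS arrays (SD, n = 4), a difference of 0.76 ± 0.48 (SE), and was detected above background on 2 arrays of each breed. A second GDF11 probe set gave 1.26 ± 0.57 (SE), above background on 3 KNP arrays and 1 YS array. It passed the filter through its KNP values, as its YS mean of 5.72 lay below the mean of the SMAD3 probe set. The oocyte growth factor GDF9 was at 7.49 ± 0.38 against 7.83 ± 0.35.

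Of 6 other receptors and co-receptors, 3 were higher and 3 lower in mean, with a median of -0.01. The activin receptor ACVR2A averaged 6.08 ± 1.03 on the KNP arrays and 6.87 ± 0.72 on the YS arrays (SD, n = 4); 1 KNP and 2 YS arrays exceeded background. Endoglin (ENG), a co-receptor of endothelial cells, was at 9.29 ± 0.45 against 9.51 ± 0.42. Neither the 6 receptors nor the 7 SMADs and SMAD partners held a gene past the test. SMAD1, which carries BMP signals, was at 9.41 ± 0.52 against 9.80 ± 0.34, and FKBP1A, which binds type I receptors and keeps them inactive, at 12.51 ± 0.28 against 12.88 ± 0.67. In that group 4 were higher and 3 lower, with a median of 0.01.

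Secreted inhibitors and decoys, which hold ligands away from their receptors, had 4 of 6 lower means in KNP and a median of -0.40. Asporin (ASPN), a small proteoglycan that binds TGF-beta, averaged 10.97 ± 0.46 on the KNP arrays and 11.73 ± 0.82 on the YS arrays (SD, n = 4), a difference of -0.76 ± 0.43 (SE). Follistatin (FST), which traps activins, was at 9.43 ± 0.30 against 9.79 ± 0.32, and a second FST probe set gave -1.22 ± 0.84 (SE). None passed (limma, adjusted p = 0.9998 for both genes).

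Among genes that hold TGF-beta latent in the matrix or release it, 8 of 11 had a lower mean in KNP, with a median of -0.15. Fibrillin-1 (FBN1), the microfibril protein to which latent complexes are tethered, averaged 12.90 ± 0.23 on the KNP arrays and 13.68 ± 0.56 on the YS arrays (SD, n = 4), a difference of -0.77 ± 0.32 (SE) with adjusted p = 0.9998 in limma. Only YS replicate 4, at 7853, lay within the KNP range of 6663 to 9485. A second FBN1 probe set gave -1.04 ± 0.69 (SE). BMP1, a protease of the matrix and not a BMP ligand, was at 9.25 ± 0.54 against 9.86 ± 0.40.

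Of the 8 measured fibroblast and adipocyte progenitor markers, all above the no-target level on every array, 7 had a lower mean in KNP and 0 passed the test. Their summed signals overlapped, at 32179 to 62238 in KNP and 33380 to 76267 in YS. Their part in the values of ASPN, FBN1 and BMP1 was not tested.

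Genes known as responsive to TGF-beta or BMP were split, 13 higher and 7 lower of 20, with a median of 0.10. The repressor BHLHE40 averaged 6.05 ± 0.93 on the KNP arrays and 7.23 ± 0.13 on the YS arrays (SD, n = 4), a difference of -1.18 ± 0.43 (SE) without overlap between breeds and with adjusted p = 0.9998 in limma. It exceeded the no-target level on 2 KNP and 3 YS arrays. Periostin (POSTN), a matricellular protein made by fibroblasts, was at 12.89 ± 0.81 against 13.83 ± 0.46, a difference of -0.94 ± 0.43 (SE), while its second probe set gave 0.00 ± 0.71 (SE).

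**Figure D5:**
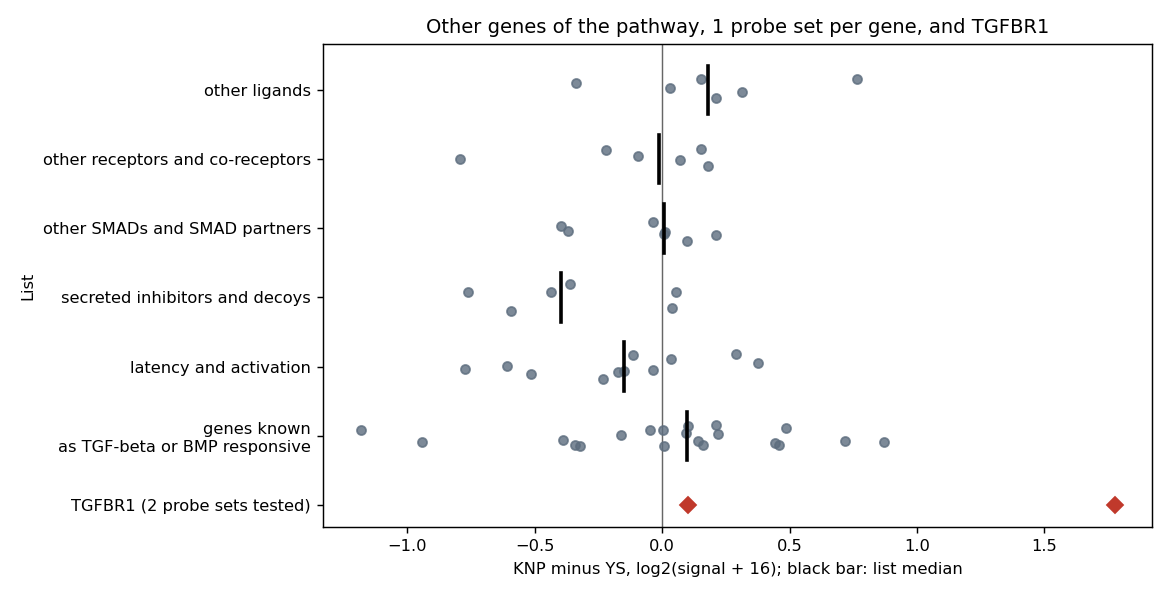
Grey points give the difference between breed means (KNP minus YS, log2 scale) of each tested gene in 6 pathway lists, by its brightest probe set, with a black bar at the list's median; red diamonds are the 2 tested TGFBR1 probe sets. The 6 medians lie between -0.40 and 0.18. The diamonds lie at 0.10 for the brightest probe set and at 1.78 for the dim one, which was picked for its difference and is not comparable with the grey points.

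Genes whose signal over the 8 arrays was most like that of the bright TGFBR1 probe set were sought among 5324 named genes detected on at least 6 arrays. HSD17B14, a steroid dehydrogenase, came first with r = 0.93 and rho = 0.98. KTN1, which encodes the membrane protein kinectin (r = 0.93, rho = 0.90), EPB41L3, of the membrane skeleton (r = 0.91, rho = 0.83), and TMEM131L (r = 0.90, rho = 0.86) followed. With each breed's mean taken out, r was 0.93, 0.97, 0.91 and 0.94 in that order. KNP replicate 2 was the lowest and KNP replicate 3 the highest array for all 4, as for TGFBR1, so these likenesses describe a pattern within KNP that rests on the same arrays. They were picked from the highest of 5324 values, 5% of which exceeded 0.64, and carry no test.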

How the data were processed

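Total RNA from 8 backfat samples was hybridised to the Affymetrix GeneChip Porcine Genome Array, 1 colour, per the labels. The authors deposited linear intensities of 24123 probe sets on each array. Each array had a mean of 500 after trimming 2% at each end, as read from the deposited intensities; the summarising algorithm was not given in the sources used here. Medians ranged from 158.2 to 263.

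The scaling was kept, 124 control probe sets were removed, and the 25% of the rest with the lowest mean log2(signal + 16) were left out. KNP was set against YS in limma 3.58.1 (R 4.3.3), two-sided, with Benjamini-Hochberg adjustment over 17999 probe sets at 0.05; the fit was tested on simulated data. SEs come from this fit. Symbols came from the platform's annotation: 10069 probe sets had 1, 198 several and 13732 none, and 9961 of the single-symbol entries matched RefSeq of Sscrofa11.1 by Entrez identifier, all with the same symbol.

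The genes, the pathway lists and the cell type lists were chosen with earlier results of these data known. Of each pathway list the 2 genes with the smallest p are named, as none passed. The genes most like TGFBR1 were the 5 with the highest Pearson's r, of which 1 is not reported here. The tests between probe sets of 1 gene were chosen after their values were seen. In each pair, the 2 arrays left out were those furthest from the median of the brighter probe set. Replicate numbers were not treated as pairs: deviations of same-numbered arrays correlated at -0.19 to 0.13, and 1 of 4 numbers exceeded 0.1. Alternatives were other filters, scalings, added constants, variance models, array weights, the block, a 3'/5' covariate and each array left out. The number of arrays limits the precision.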

Additional observations from a re-analysis of the deposited data

Results flagged for a closer look

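Among 64 groups of 4 arrays (the genes described, named or found most like TGFBR1, in each breed), 3 held an array that stood apart by Dixon's ratio at its 95% critical value, about as many as chance gives at 1 group in 20. None of the 30 groups of the 8 genes first described was among them. The FKBP1A signal was 3748 on YS replicate 4 and 9017 to 10107 on the other YS arrays. The BMP1 signal was 332 on KNP replicate 1 and 660.0 to 758 on the other KNP arrays. On YS replicate 4 it was 600.5, against 1007 to 1104 on the other YS arrays. Both arrays are among the 3 with the largest 3'/5' difference, and its part in these values was not tested.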

How the results depend on the processing

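The count of 0 probe sets past the test held in all 19 alternative settings, and the count of 0 other pathway genes in all 20; the smallest adjusted p over the settings was 0.0596, with a variance trend and robust fitting. With the replicate block the count was also 0, with 509 probe sets at an unadjusted p under 0.05. That unadjusted number was 511 as reported and moved by over 1.5 times to 881 with the 3'/5' covariate (312 higher in KNP) and 975 with array weights (498 higher), and it ran from 417 to 883 with 1 array left out; the cause was not tested. At that unadjusted level 0 to 7 other pathway genes were found with 1 array left out, 7 of them without YS replicate 4. No breed difference is read from these unadjusted counts. Of 289 differences recomputed for the 15 probe sets, 285 moved by less than 1 SD between arrays. Much of this count was fixed in advance, so no stability is read from it. Other filters, the variance trend and the block leave a difference unchanged, and leaving out 1 array cannot move it by 1 SD. There were 6 probe sets that kept their sign in every setting, and 9 did not. The 6 were Ssc.23794.1.S1_at and Ssc.23794.1.A1_at of TGFBR1, Ssc.92.1.A1_at of TGFB2, Ssc.6138.1.S1_at of TGFB3, and the probe sets of TGFBR3 and BMP4. Settings that leave a difference unchanged cannot turn its sign. Ssc.23794.1.A1_at was above the no-target level on 0 of 8 arrays, so nothing is read from its sign. Averaged over their probe sets, TGFBR1 was at 0.54 and TGFB3 at -0.36. These averages include Ssc.23794.1.A1_at, the separated TGFBR1 probe set and the dim TGFB3 probe set, so they are not read as values of the genes. Against the no-target level of each array, chosen after seeing the data, SMAD4 was at -0.16. The bright TGFBR1 and TGFB3 probe sets were also at -0.16 and the brightest of TGFB2 at -0.11. All of these were above 0 on the signal itself. The same array levels enter each of them, so this change of sign is not particular to a gene. Dim signal limits TGFBR3, SMAD3 and the dimmer TGFBR1, TGFB2 and TGFB3 probe sets.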
